A study of Mus musculus with 6 samples.

Results

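The genes described here encode the contractile apparatus of striated muscle, together with proteins that handle its calcium, 2 natriuretic peptides of the heart and 2 muscle transcription factors. They were chosen by name as a list of 41 genes, all of which were rows of the deposited table of 49585 genes. RNA was sequenced from sorted cells of the thoracic wall of C57BL/6 mouse embryos at E10.5, in 3 libraries from Prx1-Cre Ebf3 flox/+ embryos (heterozygous) and 3 from Prx1-Cre Ebf3 flox/flox embryos (Prx1-Cre Ebf3-KO, here KO). Ebf3 is a transcription factor, and the floxed allele removes the exons of its DNA-binding domain where Cre is active. Both groups carried Prx1-Cre, which is active in lateral plate mesoderm and limb bud mesenchyme, an R26R Tdtomato reporter and at least 1 floxed allele, so the heterozygous embryos had lost 1 copy of Ebf3 in the same cells. Limb buds, the heart and the other organs of the body cavities had been taken away before the thoracic wall was cut out, and the Tdtomato-positive cells (thoracic LPMs) were isolated by FACS. How many embryos went into a library was not stated, so every p-value measures the spread between these samples only.

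Striated muscle contracts when thick filaments of myosin pull on thin filaments of actin, with calcium acting through the troponin complex on the thin filament. Most of these proteins exist as several isoforms, each from its own gene, used in the heart, in slow or in fast skeletal fibres, and many cardiac isoforms are also made in embryonic or slow skeletal muscle. The genes were therefore split, broadly by the adult muscle in which each isoform predominates, into 15 cardiac, 11 skeletal and 15 shared genes. The line between cardiac and shared is approximate. Embryonic skeletal muscle also makes both Actc1 and Myl4, yet Actc1 was placed with the shared and Myl4 with the cardiac genes. The heart of the mouse embryo already beats at this stage, whereas the muscles of the body wall are still forming from somite cells. Lateral plate mesoderm gives rise to the connective tissue of the body wall and, in another part, to the heart.

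The 6 libraries held between 2088091 and 3525565 gene counts. Ebf3 itself had 94.6, 98.6 and 106 CPM (counts scaled for library size) in the heterozygous libraries and 74.0, 43.1 and 60.7 CPM in the KO libraries, without overlap (log2 fold change -0.74, SE 0.18). Markers of lateral plate mesenchyme such as Prrx1, Twist1 and Pdgfra were present in every library. The list of 9 such markers includes Ebf3 itself, the deleted gene. Its summed level lay between 1912 and 2052 CPM in heterozygous and between 1606 and 1971 CPM in KO libraries. Liver markers were highest in KO replicate 3, at a sum of 322 CPM against 19.8 to 126 CPM in the other libraries, and neuronal markers were also highest there.

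Of the 41 genes, 23 reached 10 counts in at least 3 libraries and were tested among 10891 genes, and 18 did not. The mean of the KO libraries was above that of the heterozygous libraries for 23 of the 23, with a median log2 fold change of 0.91 against 0.00067 over all genes tested. None of the 23 passed an adjusted p of 0.05 in edgeR's quasi-likelihood test, and neither did any other gene (0.0% of genes called), and the adjusted p was 1.0 for each of the 23. At an unadjusted p up to 0.05, 1 of the 23 was called, beside 2.15% of all genes tested. In no case did the 3 KO libraries all lie above the 3 heterozygous libraries (3.95% of all genes) or all below them (3.51%). With 3 libraries per genotype, the test therefore told no member apart by genotype. It did not call Ebf3 either, whose groups did not overlap (unadjusted p = 0.00161 in edgeR), so a lack of calls does not show a lack of difference.

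That spread had a shape shared by most of the list. KO replicate 1 was the highest of the 6 libraries for 21 of the 23 genes, beside 17.0% of all genes tested, and for 15 of them it held at least 2 times the level of the next highest library, beside 0.303% of all genes. These were 15 of the 33 tested genes with such a lead of KO replicate 1. Of the untested members, Myl2, Ckm, Acta1, Nppb and Nkx2-5 had it too, with between 5 and 302 counts in all. Heterozygous replicate 2 was the lowest library for 13 of the 23, beside 14.8% of all genes. Without KO replicate 1, 21 of the genes could still be tested, and 18 of these had a lower mean in KO than in heterozygous libraries, with a median log2 fold change of -0.51 against 0.0063 over all genes. What set KO replicate 1 apart from the other KO libraries was not tested.

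**Figure D1:**
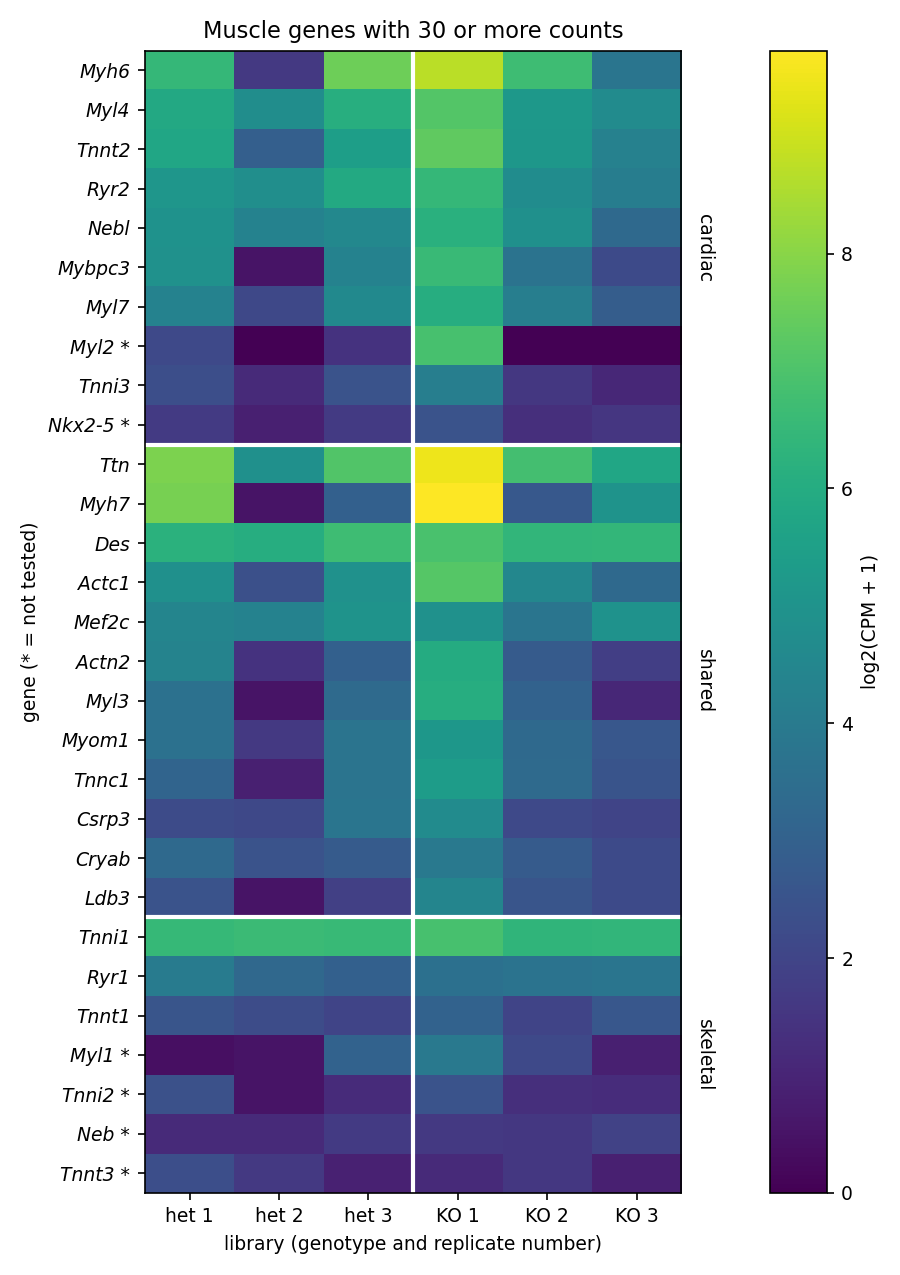
Level of each gene with at least 30 counts in total, as log2(CPM + 1) by colour, in the 3 heterozygous (het) and 3 KO libraries. Rows are grouped into cardiac, shared and skeletal genes, and an asterisk marks genes under the count minimum. The KO 1 column is the brightest for most cardiac and shared genes and the het 2 column among the darkest, while Tnni1, Des and Ryr1 hold a similar colour throughout.

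Summed over the cardiac genes, the level was 324, 86.2 and 437 CPM in heterozygous replicates 1 to 3 and 1189, 265 and 96.5 CPM in KO replicates 1 to 3. The groups overlapped, and KO replicate 3 lay near the lowest heterozygous library. The log2 ratio of the means was 0.87, and it was -0.64 without KO replicate 1. The shared genes followed the cardiac ones, with 625, 131 and 369 CPM in heterozygous and 2112, 282 and 234 CPM in KO libraries, a log2 ratio of 1.22 that became -0.54 without KO replicate 1. The sum of the skeletal genes varied less, at 124, 116 and 117 CPM in heterozygous and 167, 106 and 107 CPM in KO libraries (log2 ratio 0.09, or -0.16 without KO replicate 1). Tnni1 alone made up 71.2% to 85.3% of the skeletal sum in each library. The 10 other skeletal genes summed to 33.5, 17.0 and 23.4 CPM in heterozygous and 47.9, 23.8 and 24.3 CPM in KO libraries, highest in KO replicate 1 and lowest in heterozygous replicate 2 as the cardiac sum was (log2 ratio 0.38, or -0.035 without KO replicate 1). The highest library exceeded the lowest 13.8-fold for the cardiac sum, 16.2-fold for the shared sum and 1.58-fold for the skeletal sum, or 2.82-fold for that sum without Tnni1. Cardiac genes together made up 0.119% of all gene counts in KO replicate 1 (95% exact binomial interval 0.115% to 0.124%) and 0.00855% in heterozygous replicate 2 (0.00742% to 0.00979%). These intervals cover counting error only. In bulk RNA of this kind, fewer cells of a type and less RNA per cell cannot be told apart.

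**Figure D2:**
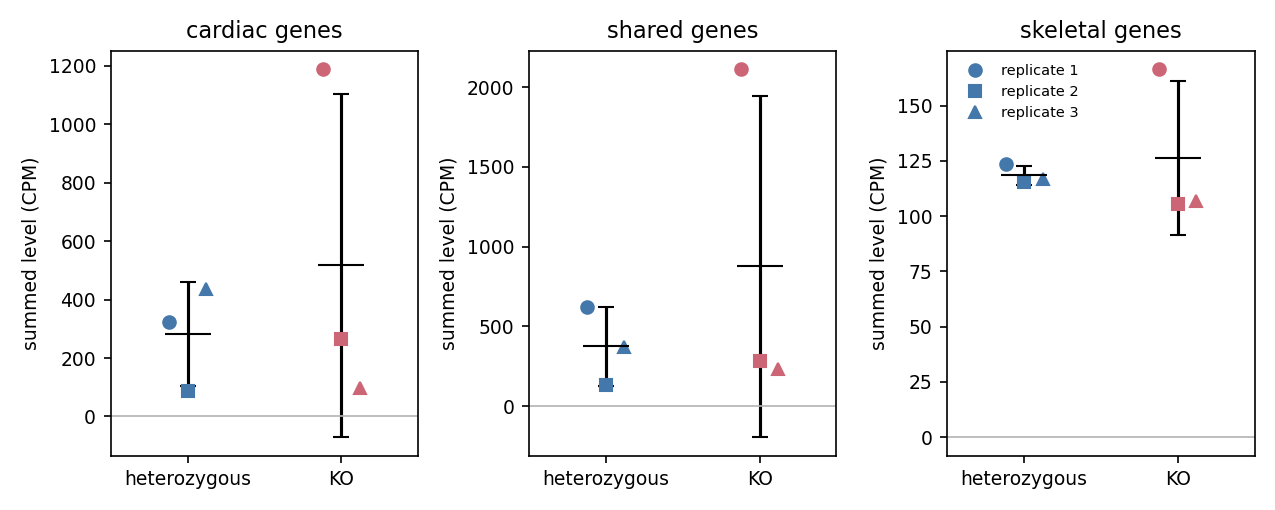
Summed level in CPM of the cardiac, shared and skeletal genes in each library. Points are libraries, with the replicate number given by the marker, and bars are the mean and SD of the 3 libraries of a genotype. KO replicate 1 stands at 1189 CPM for cardiac and 2112 CPM for shared genes, above the 5 other libraries, while the skeletal sums lie between 106 and 167 CPM. Axes differ between panels.

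Most of the list also spread widely among the heterozygous libraries. Among the 3 heterozygous libraries the coefficient of variation of the tested genes had a median of 0.693, against 0.149 over all genes tested, and among the KO libraries, KO replicate 1 included, 1.07 against 0.171. The heterozygous median was 0.624 for cardiac, 0.785 for shared and 0.252 for skeletal genes. Tnni1 was the steadiest of the tested genes in the heterozygous libraries, with a coefficient of 0.0463, and Myh7 the most variable, with 1.65.

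The promoters of 4 genes that followed the common pattern and of 1 that did not are shown here to give the sequence next to these values. The windows are the 250 bases before the RefSeq start on GRCm38.p6, and such windows were found for 34 of the 41 genes. Capitals mark matches to the CArG box, the site bound by serum response factor, or to MCAT (CATTCC), the site bound by TEAD factors, on either strand. None of the marked matches overlap. The 5 genes were picked after their values were seen, and the 4 that followed the pattern all hold a CArG box. They do not represent the list in this. No CArG box was found in the windows of Myh6, Myh7, Ttn, Tnnt2, Tnnc1, Actn2 or Mybpc3, which were also highest in KO replicate 1. The window of Actc1 lies at chr2:114052876-114053125 (minus strand), that of Ldb3 at chr14:34588608-34588857 (minus strand), that of Myl3 at chr9:110763428-110763677 (plus strand), that of Myl7 at chr11:5898783-5899032 (minus strand) and that of Tnni1 at chr1:135799171-135799420 (plus strand).
Actc1: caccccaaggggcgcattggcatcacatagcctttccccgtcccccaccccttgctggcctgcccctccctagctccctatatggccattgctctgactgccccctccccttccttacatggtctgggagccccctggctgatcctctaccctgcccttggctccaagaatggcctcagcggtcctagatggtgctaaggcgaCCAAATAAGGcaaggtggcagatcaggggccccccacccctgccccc
Ldb3: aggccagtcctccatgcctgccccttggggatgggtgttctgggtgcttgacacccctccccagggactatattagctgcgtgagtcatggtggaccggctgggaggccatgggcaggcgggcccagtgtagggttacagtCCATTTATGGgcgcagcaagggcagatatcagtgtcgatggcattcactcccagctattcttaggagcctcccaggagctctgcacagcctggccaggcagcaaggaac
Myl3: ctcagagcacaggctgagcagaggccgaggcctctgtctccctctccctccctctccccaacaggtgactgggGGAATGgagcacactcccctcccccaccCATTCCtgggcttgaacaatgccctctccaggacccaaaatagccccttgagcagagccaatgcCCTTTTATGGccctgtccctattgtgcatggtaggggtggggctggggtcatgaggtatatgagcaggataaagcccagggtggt
Myl7: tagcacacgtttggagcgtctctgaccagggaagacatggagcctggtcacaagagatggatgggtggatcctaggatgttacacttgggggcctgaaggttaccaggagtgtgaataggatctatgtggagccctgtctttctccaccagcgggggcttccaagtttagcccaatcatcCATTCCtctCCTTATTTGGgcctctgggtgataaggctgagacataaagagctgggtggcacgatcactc
Tnni1: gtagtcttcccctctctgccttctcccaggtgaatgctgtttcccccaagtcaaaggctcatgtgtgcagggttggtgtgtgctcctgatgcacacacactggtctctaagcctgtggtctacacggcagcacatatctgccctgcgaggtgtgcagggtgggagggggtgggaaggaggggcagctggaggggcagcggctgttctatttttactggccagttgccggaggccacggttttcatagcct
The CArG box ended 37 bases before the start of Actc1, 51 before that of Myl7, 75 before that of Myl3 and 99 before the Ldb3 start used here. Ldb3 and Tnni1 also had a window at another RefSeq start, which is not printed. That of Ldb3 (chr14:34588682-34588931) held a CArG box too. A CArG box was present in 8 of the 45 windows of the list, which belong to 7 genes (Acta1, Actc1, Ldb3, Myl3, Myl7, Myom1 and Nebl), and in 1.47% of 32851 windows of all genes. MCAT was present in 11 of the 45 windows and in 12.6% of all windows. The MEF2 site was found in 4 of the 45 windows against 2.92% of all, the GATA motif AGATAA in 7 against 9.99%, the E-box CANNTG in 37 against 66.2%, and the TATA motif TATAAA in 11 against 12.4%. The window of Tnni1 held only E-boxes among these motifs, which are not capitalised. A match is a description of the letters and was not linked to any factor in these data.

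Thick filament genes showed the widest spread. Myh6 encodes the alpha myosin heavy chain, the cardiac motor that predominates in the atria and in the adult mouse heart, and Myh7 the beta chain, which predominates in the embryonic ventricle and in slow skeletal fibres. Myh6 had 288, 5 and 453 counts in heterozygous replicates 1 to 3 and 1028, 208 and 46 counts in KO replicates 1 to 3 (log2 fold change 0.92, SE 1.04, unadjusted p = 0.394 in edgeR). Myh7 had 687, 1 and 16 counts in the heterozygous and 2049, 11 and 112 counts in the KO libraries (log2 fold change 1.96, SE 1.46, unadjusted p = 0.205). Neither gene separated the genotypes, and the highest library exceeded the lowest 205-fold in CPM for Myh6 and 2040-fold for Myh7, whose lowest library held a single count. The fold change of Myh7 turned to -1.92 without KO replicate 1 and rose to 6.34 without heterozygous replicate 1, the other library rich in its counts.

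The regulatory and essential light chains bind the neck of the myosin motor. Myl7, the atrial regulatory light chain, which the early ventricle also makes, had 62, 8 and 56 counts in heterozygous and 159, 34 and 23 in KO libraries (log2 fold change 0.91, SE 0.73, unadjusted p = 0.243). Myl4, the essential light chain of the atria and of embryonic skeletal muscle, had 189, 63 and 158 counts against 331, 72 and 91 (0.37, SE 0.53, unadjusted p = 0.507). Myl3, the essential light chain of the ventricle and of slow fibres, had 37, 1 and 22 counts against 160, 15 and 4 (1.74, SE 1.05, unadjusted p = 0.126). All 3 were highest in KO replicate 1, and Myl7 and Myl3 were lowest in CPM in heterozygous replicate 2. Mybpc3, the cardiac myosin-binding protein C, had 95, 1 and 44 counts in heterozygous and 231, 24 and 13 in KO libraries (1.13, SE 0.99, unadjusted p = 0.278).

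Myl2, the regulatory light chain of the ventricle, came almost wholly from a single library and did not reach the count minimum. It had 11, 0 and 4 counts in heterozygous replicates 1 to 3 and 287, 0 and 0 counts in KO replicates 1 to 3. KO replicate 1 thus held 287 of its 302 counts. Myl1, the essential light chain of fast skeletal muscle, which is also made in the embryonic heart, had 1, 1 and 17 counts in heterozygous and 35, 7 and 3 in KO libraries, with most counts in KO replicate 1 and heterozygous replicate 3. The embryonic and perinatal skeletal myosins Myh3 and Myh8 were almost absent, with 7 and 2 counts over all libraries.

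The ratio between isoforms of the heart's chambers differed between libraries and did not follow genotype. Myh7 made up 70.5% of the counts of Myh6 and Myh7 in heterozygous replicate 1 (95% exact binomial interval 67.5% to 73.3%), 66.6% in KO replicate 1 (64.9% to 68.3%) and 70.9% in KO replicate 3 (63.1% to 77.8%). The share was 3.41% in heterozygous replicate 3 (1.96% to 5.48%) and 5.02% in KO replicate 2 (2.53% to 8.81%), and the 6 counts of both genes in heterozygous replicate 2 left it open between 0.421% and 64.1%. Each genotype thus had a library near 70% and a library near 5% or below. Myl2 made up 64.3% of the counts of Myl2 and Myl7 in KO replicate 1 (59.7% to 68.8%), 15.1% in heterozygous replicate 1 (7.77% to 25.4%) and 6.67% in heterozygous replicate 3 (1.85% to 16.2%). No Myl2 count was seen among 34 in KO replicate 2, 23 in KO replicate 3 and 8 in heterozygous replicate 2, with upper limits of the same interval at 10.3%, 14.8% and 36.9%. KO replicate 3 therefore had a Myh7 share like that of KO replicate 1 and no Myl2 count. Shares of counts are not scaled for gene length. By the deposited RPKM, which is, Myl2 made up 35.3% of Myl2 and Myl7 in KO replicate 1, less than Myl7. The Myh7 share by RPKM was 62.1% there. Myh6 and Myh7 lie next to each other on chr14 (54941921-54966927 and 54970684-54994626 on GRCm38, minus strand) and are near-identical in much of their coding sequence, so how their reads were divided is uncertain. Myh7 also overlaps Mhrt on the opposite strand, and whether counting used strand was not stated.

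**Figure D3:**
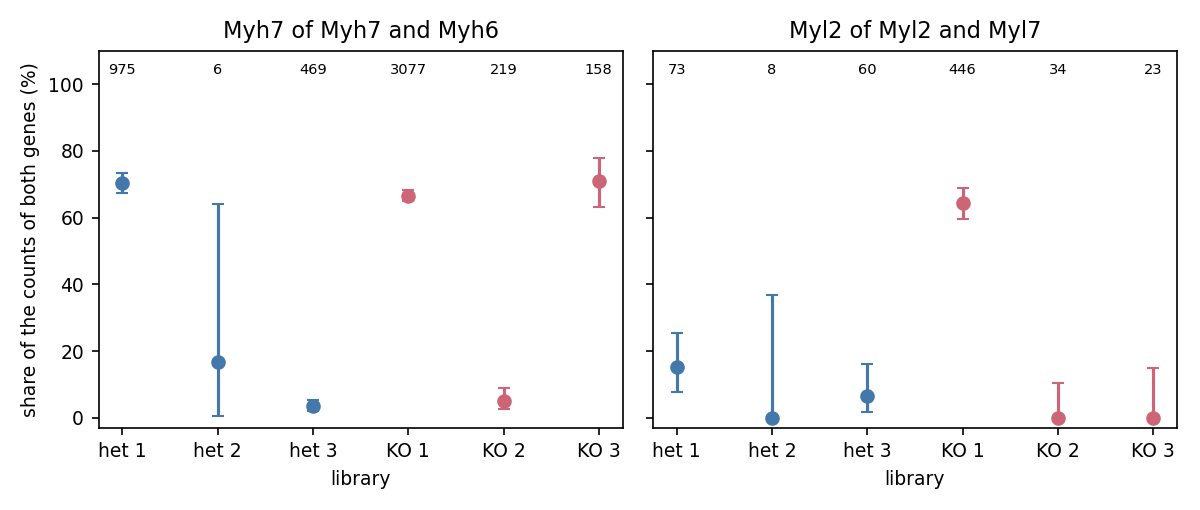
Share in percent of Myh7 among the counts of Myh7 and Myh6 (left) and of Myl2 among the counts of Myl2 and Myl7 (right) in each library, heterozygous in blue and KO in red. Bars are 95% exact binomial intervals, and the number above each point is the count of both genes. Myh7 shares near 70% and near 5% occur in both genotypes. The Myl2 share of counts exceeds 60% only in KO replicate 1, where it was 35.3% by RPKM.

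On the thin filament, the cardiac and shared genes followed the myosins. Actc1, cardiac alpha-actin, which embryonic skeletal muscle also makes, had 93, 10 and 69 counts in heterozygous and 346, 44 and 33 in KO libraries (log2 fold change 1.45, SE 0.84, unadjusted p = 0.112). Tnnt2, the cardiac troponin T that binds tropomyosin, had 172, 16 and 101 counts against 390, 69 and 67 (1.02, SE 0.73, unadjusted p = 0.188). Tnnc1, the calcium-binding troponin C of heart and slow muscle, had 25, 2 and 29 counts against 98, 19 and 17 (1.35, SE 0.78, unadjusted p = 0.112). All 3 were highest in KO replicate 1 and lowest in heterozygous replicate 2, and all had KO libraries on either side of the highest heterozygous library. Tnni3, the inhibitory troponin of the mature heart, was low, with 13, 3 and 11 counts in heterozygous and 41, 4 and 4 in KO libraries (0.95, SE 0.87, unadjusted p = 0.296). Nebl, a nebulin relative of the cardiac Z-disc, had 99, 45 and 53 counts against 171, 57 and 33 (0.55, SE 0.54, unadjusted p = 0.325).

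Of the skeletal isoforms of the thin filament, the slow troponin Tnni1 varied least, and the genes with fewer counts differed among themselves. Tnni1, the slow skeletal troponin I, which is also the main troponin I of the embryonic heart, had 293, 238 and 219 counts in heterozygous and 287, 165 and 300 in KO libraries. Scaled for depth these are 90.0, 98.6 and 93.3 CPM against 119, 81.8 and 82.7 CPM, and the groups overlapped (log2 fold change 0.0058, SE 0.16, unadjusted p = 0.972). KO replicate 1 was the highest library here too, but only 1.20 times above the next. The level of Tnni1 was nearly the same in heterozygous replicate 2, where Myh6 had 5 counts, as in the other libraries. Tnnt1, the slow skeletal troponin T, had 16, 9 and 7 counts against 18, 6 and 19 (0.42, SE 0.45, unadjusted p = 0.374). Among the fast isoforms, Tnnt3 had 13, 5 and 2 counts in heterozygous and 3, 4 and 3 in KO libraries, and Tnni2 had 14, 1 and 3 against 11, 3 and 5, an 11.0-fold range in CPM. Neb, the giant ruler protein of skeletal thin filaments, had 4, 3 and 5 counts against 5, 4 and 10. Acta1, skeletal alpha-actin, had 6, 0 and 4 counts against 15, 0 and 1, highest in KO replicate 1 as Actc1 was. The coding sequences of Acta1 and Actc1 are near-identical, so how reads were divided between them is uncertain. Tnnc2, the fast troponin C, had no count. The share of Tnni3 among the counts of Tnni3 and Tnni1 was 12.5% in KO replicate 1 (9.12% to 16.6%) and between 1.24% and 4.78% in the other libraries.

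Scaffold genes of the sarcomere included the single member with an unadjusted p up to 0.05. Ldb3, which anchors actinin at the Z-disc, had 15, 1 and 6 counts in heterozygous and 49, 10 and 13 in KO libraries (log2 fold change 1.81, SE 0.76, unadjusted p = 0.0353, adjusted p = 1.0 in edgeR). Its groups overlapped in CPM, since heterozygous replicate 1 at 4.61 CPM lay above KO replicate 3 at 3.59 CPM, and its fold change was 0.64 without KO replicate 1. Ttn, the spring protein titin, had 727, 68 and 318 counts against 1709, 225 and 194 (1.16, SE 0.82, unadjusted p = 0.186). Actn2, alpha-actinin of the Z-disc, had 63, 4 and 16 counts against 151, 12 and 9 (1.25, SE 0.97, unadjusted p = 0.223). These 3 genes all had their highest value in KO replicate 1 and their lowest in heterozygous replicate 2. Myom1, which links thick filaments at the M-band, had 37, 5 and 29 counts against 83, 18 and 19 (0.86, SE 0.68, unadjusted p = 0.229). Csrp3, a Z-disc LIM protein, had 12, 8 and 30 counts against 61, 7 and 11 (0.69, SE 0.78, unadjusted p = 0.398).

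Other scaffold genes that are less specific to sarcomeres varied less. Des, the intermediate filament desmin, which smooth muscle and some mesenchymal cells also make, had 239, 158 and 246 counts in heterozygous and 292, 167 and 310 in KO libraries (log2 fold change 0.25, SE 0.20, unadjusted p = 0.244). Cryab, a small heat shock protein, had 29, 11 and 14 counts against 35, 12 and 13 (0.25, SE 0.51, unadjusted p = 0.636). Their highest libraries exceeded their lowest 1.84-fold and 4.03-fold in CPM, against 25.1-fold for Ttn and 37.6-fold for Actn2. Tcap, the titin cap, had 12 counts over all libraries and Myom2 had 2.

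Genes of calcium handling were split by isoform as the filaments were, with smaller differences. Ryr2, the cardiac calcium release channel, had 110, 65 and 140 counts in heterozygous and 211, 52 and 60 in KO libraries (log2 fold change 0.09, SE 0.51, unadjusted p = 0.855). Ryr1, the skeletal channel, had 51, 21 and 16 counts against 27, 24 and 46 (0.17, SE 0.34, unadjusted p = 0.619). Ryr2 was highest in KO replicate 1, whereas Ryr1 was highest in heterozygous replicate 1 and lowest in heterozygous replicate 3. Phospholamban (Pln), sarcolipin (Sln) and cardiac calsequestrin (Casq2), which restrain the calcium pump or buffer calcium, had 3, 0 and 6 counts over all libraries. The deposited RPKM of Pln was nevertheless 0.375 in the mean of the heterozygous and 0.428 in that of the KO libraries. Pln overlaps Cep85l on the opposite strand, and its level is uncertain. Why its counts and RPKM differ was not tested. Ckm, the muscle creatine kinase, had 5 counts.

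Of the natriuretic peptides and transcription factors, Nkx2-5 and Nppb had the lead of KO replicate 1 at few counts, and Nppa and Mef2c did not. Nppa, a peptide hormone of the working atrial and early ventricular muscle, had 0, 0 and 1 counts in heterozygous and 11, 12 and 0 in KO libraries, and Nppb had 3, 0 and 0 against 6, 0 and 3. Nppa thus reached as many counts in KO replicate 2 as in KO replicate 1, although Myh6 and Ttn were several times lower in KO replicate 2. Nkx2-5, a homeobox factor of cardiac progenitors and heart muscle, had 7, 2 and 5 counts against 11, 3 and 7, highest in KO replicate 1 and lowest in heterozygous replicate 2 in CPM. Mef2c, a MADS factor of muscle, endothelium and neural crest, had 66, 46 and 72 counts against 71, 26 and 109 (log2 fold change 0.08, SE 0.31, unadjusted p = 0.804), and was not highest in KO replicate 1.

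**Figure D4:**
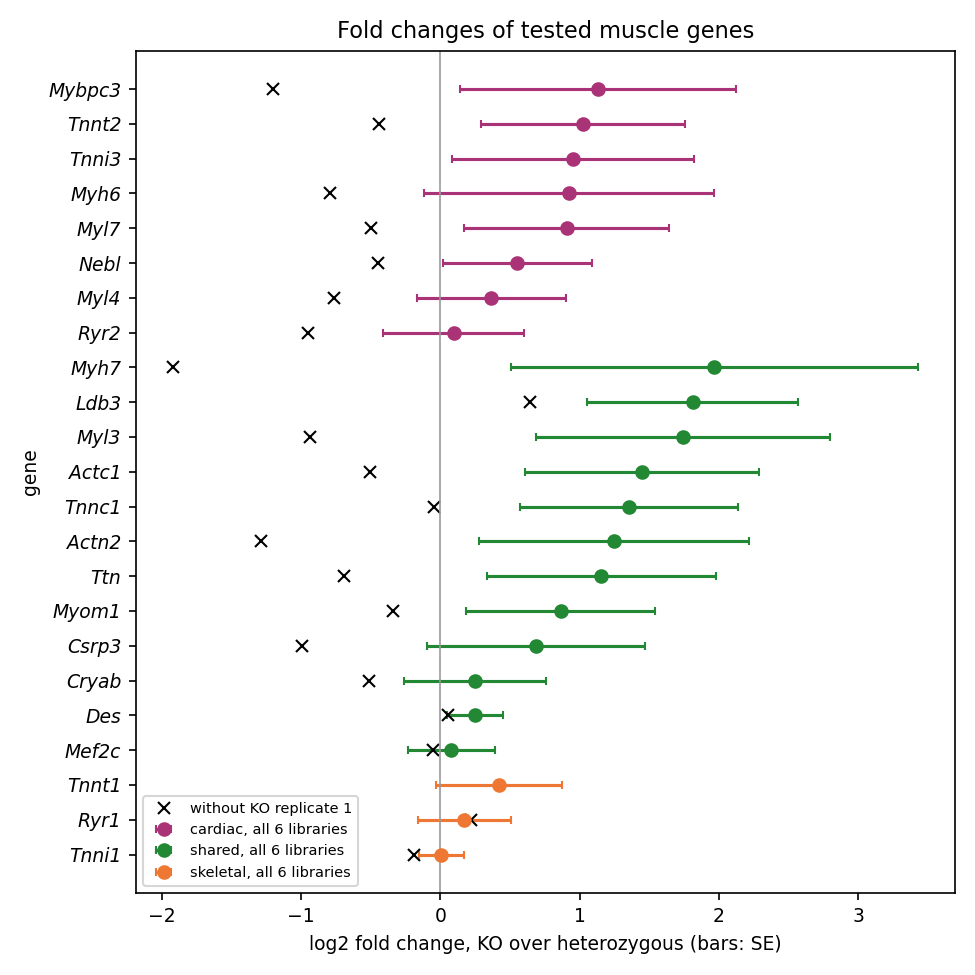
Log2 fold change of KO over heterozygous for the 23 tested genes from edgeR, with the SE as bars, coloured by class. Crosses give the value without KO replicate 1, where the gene could still be tested. The values from 6 libraries lie above 0 and most crosses of cardiac and shared genes lie below it, while Ldb3, Des and Ryr1 remain above 0.

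Comparing genes by the deposited RPKM, which is scaled for length, the leading genes were not the same in both genotypes. In the mean of the heterozygous libraries Myl7 (6.39 RPKM), Tnni1 (6.35), Actc1 (6.34) and Des (5.21) led, followed by Myh6 at 3.86 RPKM. In the mean of the KO libraries Actc1 (14.3 RPKM), Myl7 (10.9) and Myh7 (9.27) led, above Myh6 (6.61), Tnni1 (6.32) and Des (6.22). The order in KO rests on replicate 1, where Myh7 was at 26.3 RPKM against 0.118 and 1.39 RPKM in KO replicates 2 and 3. Ttn, with many counts, was low per length, at 0.415 RPKM in heterozygous and 0.828 RPKM in KO libraries.

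Further genes of striated muscle were read from a second list of 48, of which 16 reached the count minimum. The KO mean was above the heterozygous mean for 13 of these and below it for 3, with a median log2 fold change of 0.39. Of the 16, 10 were highest in KO replicate 1, beside 17.0% of all genes tested, and none had an unadjusted p up to 0.05. Every KO library lay above every heterozygous library for Fhl2 and Pdlim3, beside 3.95% of all genes tested. Every KO library lay below them for Obsl1, beside 3.51%. The smallest p belonged to Pdlim3, a Z-disc protein, at 12.3, 10.8 and 10.7 CPM in heterozygous and 14.9, 18.3 and 15.2 CPM in KO libraries (0.51, SE 0.25, unadjusted p = 0.0633), which differed from the myosins in not leading in KO replicate 1. Hspb7, a small heat shock protein of heart and muscle, had 26.0 CPM in KO replicate 1 and no more than 5.22 CPM in any other library. Tpm1 and Atp2a2, a tropomyosin and a calcium pump that non-muscle cells also make, were abundant and steady, at 843 to 1189 CPM and 320 to 444 CPM.

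Of the heart transcription factors tested, only Myocd had at least 2 times the level of the next highest library in KO replicate 1. Of 11 in the list 9 were tested, with the KO mean above the heterozygous mean for 3 and below it for 6. Tbx5 and Myocd, 2 of the 9, were highest in KO replicate 1, beside 17.0% of all genes tested. Tbx5 exceeded the next library only 1.05 times there and Myocd 3.36 times. Irx4, untested with 10 counts in all, exceeded it 4.0 times. Gata4 had 71.3, 69.2 and 123 CPM in heterozygous and 87.2, 65.0 and 115 CPM in KO libraries. Isl1, a LIM-homeodomain factor of cardiac progenitors and of motor neurons, was the member of this list with the smallest p, at 9.22, 9.53 and 7.67 CPM against 15.7, 15.9 and 22.3 CPM (1.04, SE 0.27, unadjusted p = 0.00255, adjusted p = 1.0), without overlap. Hand2, which marks cardiac and limb mesenchyme, had 122, 89.1 and 80.1 CPM against 81.0, 58.5 and 78.3 CPM (-0.42, SE 0.18, unadjusted p = 0.0452, adjusted p = 1.0). Myocd, the coactivator of serum response factor in heart and smooth muscle, stood at 21.5 CPM in KO replicate 1 against 0.827 to 6.39 CPM in the other libraries. Tbx20, a T-box factor of the heart, had 70.7, 24.0 and 23.9 CPM against 60.7, 17.9 and 39.7 CPM, highest in heterozygous replicate 1.

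Transcription factors of skeletal muscle precursors and committed muscle cells had few counts. Over all libraries Myf6 had none, Pax7 1, Myod1 2, Myog 7 and Myf5 14 counts, while Lbx1 had 32 and Pax3 41 counts and both were seen in every library. The summed level of the whole list of skeletal myogenic markers, some of which other mesenchyme also makes, was 30.4, 22.4 and 40.5 CPM in heterozygous and 50.8, 32.2 and 47.7 CPM in KO libraries. Smooth muscle markers summed to 304, 201 and 263 CPM against 412, 222 and 276 CPM. Like the cardiac sum, this sum was highest in KO replicate 1 and lowest in heterozygous replicate 2, but over a narrower range. The same held for the skeletal myogenic sum and for the sum of the 48 further striated muscle genes (1952 to 2497 CPM). Epicardial and mesothelial markers summed to 171 to 258 CPM and endothelial markers to 61.3 to 233 CPM, neither of them highest in KO replicate 1. Erythroid markers summed to between 0.426 and 4.97 CPM except for 23.7 CPM in KO replicate 3. The part that other cell types had in the muscle gene counts was not tested.

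**Figure D5:**
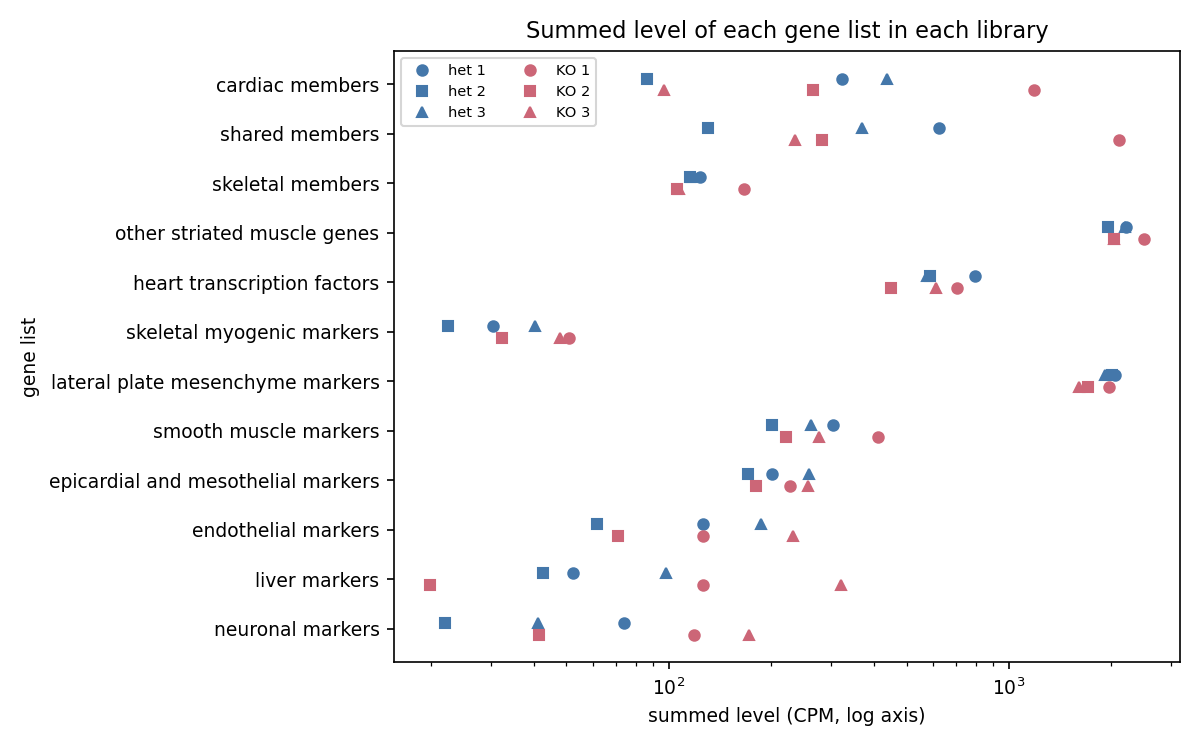
Summed level in CPM (log axis) of the 3 classes of muscle gene and of 9 other gene lists in each library, heterozygous in blue above and KO in red below, with the replicate number given by the marker. The cardiac and shared sums range over more than 10-fold with KO replicate 1 at the right. Lateral plate mesenchyme markers, Ebf3 among them, stay between 1606 and 2052 CPM, and liver and neuronal markers are highest in KO replicate 3.

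Whether members pass depended on how low counts and replicates were handled. With no count filter, 10 of the genes passed an adjusted p of 0.05 in edgeR (Actc1, Actn2, Mybpc3, Myh6, Myh7, Myl2, Myl3, Tnnc1, Tnnt2 and Ttn) out of 38 genes called among 18119, and the fold change of Myh7 was 1.96 there too (adjusted p = 1.93e-27). The cause of these calls was not tested. Without KO replicate 1, none of the members was called at an adjusted p of 0.05 in edgeR. At an unadjusted p up to 0.05, 2 members were called, beside 756 genes in all in that fit. They were Ryr2 (log2 fold change -0.95, unadjusted p = 0.0136) and Myl4 (-0.76, unadjusted p = 0.0384), both lower in KO.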

How the data were processed

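RNA from sorted thoracic LPMs was sequenced in 3 heterozygous and 3 KO libraries with a SMARTer kit on an Illumina sequencer. The authors mapped reads with the Ensembl annotation supplied with CLC and deposited counts per gene and RPKM values per library. The counter's filters and strand setting were not given in the sources used here. The build is mm10 in the study's methods and mm9 in the submitters' processing notes. Gene starts in the table count from 0, and with 1 added 34 of the 41 genes had the coordinates of GENCODE M21 on GRCm38 (mm10), the build of the coordinates printed here. The deposited RPKM was not a fixed multiple of the counts: 7.69% of the values with a count of 0 had an RPKM above 0. A deposited list of selected genes, and the authors' own p-values and fold changes, were not used.

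The deposited counts went into edgeR's quasi-likelihood test (glmQLFit, glmQLFTest; edgeR 4.0.16, R 4.3.3) after TMM normalization, in a model of genotype alone. A gene entered if 3 or more libraries had 10 or more counts for it. P-values were adjusted over all 10891 genes by the Benjamini-Hochberg method, with a threshold of 0.05. TMM factors lay between 0.970 and 1.03. CPM were scaled by these factors. Sums over a class carry no test, since 3 against 3 samples cannot give an exact permutation p below 0.1. Shares, also those of 0, have 95% exact binomial intervals. Replicates of a group differed by more than sampling noise, with a chi-square per degree of freedom of 4.5 to 13.0, so none was counted as a duplicate. DESeq2 1.42.0 and limma 3.58.1 were alternatives, the latter also on log2(RPKM + 1) and log2(RPKM + 0.1), and the fit was tested on simulated data. All 41 genes are accounted for, with counts given in every library for tested genes and for those with at least 30 counts; of each companion list up to 4 genes of smallest p could be named, and those others named there were chosen after their values were seen. The genes, classes and lists were chosen with earlier results of these data known. Of the 41 genes, 22 overlap a gene on the opposite strand, 13 of them tested, and reads of such pairs cannot be told apart if counting ignored strand; Tnni3 also overlaps Dnaaf3 on its own strand. Promoter windows and motifs came from RefSeq sequence (GRCm38.p6).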

Additional observations from a re-analysis of the deposited data

How the results depend on the processing

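No setting gave an adjusted call to any member except 2: no count filter (10 of them, with 38 genes in all) and the replicate block (1, Myh7, with 2 genes in all); RPKM gave 1 gene in all with a pseudocount of 1 and 5 with 0.1, and leaving out a library 0 to 1. Genes at an unadjusted p up to 0.05, 234 in the analysis reported, numbered 125 with DESeq2, 571 with no filter, 71 and 61 with RPKM (pseudocounts 1 and 0.1), 493 with the block, and 127 (without KO replicate 3) to 756 (without KO replicate 1) with a library left out. Members at that threshold, 1 in the analysis reported, numbered 0 with limma-voom and with 10 counts in every library, 17 with no filter, 5 with RPKM at either pseudocount, 2 with the block, and 0 to 8 with a library left out (8 without KO replicate 3). The summed level kept its sign under other scalings, and with a library left out the log2 ratio ran from -0.64 to 1.36 for cardiac, -0.16 to 0.21 for skeletal and -0.54 to 1.81 for shared genes, each negative only without KO replicate 1; without Tnni1, a setting added after seeing the data, the skeletal ratio was 0.38. Replicate numbers are shared between the groups, and whether they mark pairs was not stated. For deviations from the group means, r over genes was 0.43, 0.20 and 0.013 between same-numbered libraries. Between differently numbered libraries it ran from -0.34 to 0.13. These values do not decide whether the libraries were paired, so the block is given as an alternative only. Under the block Tnni1 was at -0.0048 and Ryr2 at -0.10. Other sign changes, all of small values, were Tnni1 (limma-voom -0.015, no filter -0.0034, RPKM -0.049 and -0.065), Ryr2 (limma-voom -0.25, RPKM -0.027 and -0.16), Nebl and Cryab (limma-voom -0.021 and -0.058) and Mef2c (RPKM with 0.1, -0.015). With a library left out, the log2 fold change ranged from -0.80 to 1.94 for Myh6, from -1.92 to 6.34 for Myh7, from -0.93 to 2.35 for Myl3, from -0.76 to 0.78 for Myl4, from -0.50 to 1.43 for Myl7, from -1.21 to 1.93 for Mybpc3, from -0.51 to 1.99 for Actc1, from -0.44 to 1.51 for Tnnt2, from -0.19 to 0.10 for Tnni1, from -0.043 to 1.96 for Tnnc1, from -0.45 to 1.05 for Nebl, from -0.69 to 1.83 for Ttn, from -1.28 to 2.45 for Actn2, from -0.99 to 1.55 for Csrp3, from -0.34 to 1.33 for Myom1, from -0.51 to 0.65 for Cryab, from -0.95 to 0.52 for Ryr2, from -0.049 to 0.62 for Ryr1 and from -0.12 to 0.35 for Mef2c, while Tnnt1, Tnni3, Ldb3 and Des stayed above 0 in every such fit that tested them. Tnnt1 and Tnni3 could not be tested without KO replicate 1, so their range leaves that fit out. In KO replicates 2 and 3 Tnni3 stood at 1.98 and 1.10 CPM, below its heterozygous mean of 3.31 CPM. Tnnt1 stood at 2.975 and 5.24 CPM there, against a heterozygous mean of 3.875 CPM. The causes of these ranges and sign changes were not tested. Depth limits the low genes: 18 members were not tested, 12 of them with fewer than 30 counts in all. The share of tested members highest in KO replicate 1 did not change with library size alone, a setting added after seeing the data.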

Other observations

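Genes outside the 41 showed the same lead of KO replicate 1. Besides the 15 tested members, 18 other tested genes had at least 2 times the level of the next highest library there. Several are muscle genes: Hspb7 (4.98 times), Myocd (3.36), Trim55 (2.57), a ubiquitin ligase of the sarcomere, Smyd1 (2.43), a methyltransferase of heart and skeletal muscle, Rbm24 (2.29) and Rbm20 (2.02), which direct muscle splicing, Jph2 (2.19), which ties the cell membrane to calcium stores, Mylk3 (2.09), the cardiac myosin light chain kinase, and Tmod1 (2.02), which caps thin filaments. The others included Traf3ip2 (2.14) and Apc2 (2.05). These genes were chosen after their values were seen, and no test was made.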
